A study of Mus musculus with 6 samples.

Results

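The genes described here encode 33 enzymes of the pentose phosphate pathway and of purine, pyrimidine and deoxynucleotide synthesis. They were chosen by name from textbook pathway membership, with earlier results of these data known. Shares and medians of the set below are therefore descriptions and not tests of the pathway. The set is 33 of the 17558 genes of the expression table. All 33 were measured above the low-count filter. The RNA came from C2C12, an immortalised mouse myoblast line that forms myotubes when serum is withdrawn. Cells of each group stably carried a short hairpin RNA. It was scrambled and non-targeting (shScr) or directed at the Pkm1 (shPkm1) or the Pkm2 (shPkm2) form of pyruvate kinase, the last enzyme of glycolysis. All groups were labelled as 48 h of differentiation, in medium with 2% horse serum and an insulin, transferrin and selenium supplement. Total RNA was sequenced from 2 libraries per group. The labels call the line wild type, number the libraries of a group 1 and 2, and do not say that these were separate cultures or how many hairpins or clones a group holds. The p-values therefore measure only the spread between these libraries, which may be technical.

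The pentose phosphate pathway branches from glycolysis at glucose 6-phosphate. Its oxidative arm makes NADPH and ribulose 5-phosphate, and its non-oxidative arm interconverts sugar phosphates with glycolysis in both directions. Ribose 5-phosphate is activated to phosphoribosyl pyrophosphate (PRPP), on which the purine ring is built and to which the pyrimidine ring is attached. Ribonucleotide reductase and the thymidylate enzymes then supply the deoxynucleotides for DNA synthesis, and many of these enzymes are known to be high in cycling cells and low in cells that have left the cycle, as myoblasts do when they form myotubes.

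The targeted gene was examined before any comparison. The Pkm1 transcript (NM_001253883.1) had 546 and 589 TPM (an abundance corrected for transcript length and library depth) in the shScr libraries, 243 and 218 in the shPkm1 libraries and 254 and 254 in the libraries labelled shPkm2. The Pkm2 transcript (NM_011099.3) had 1073 and 1517 TPM in shScr, 1278 and 1379 in shPkm1, and 2700 and 2630 in the libraries labelled shPkm2. The Pkm1 transcript was thus lower in both hairpin groups, whereas the Pkm2 transcript was not lower in the group labelled shPkm2 (log2 change 0.63, edgeR adjusted p = 0.0656), where its 2 values were the highest of the 6. Every direction given below for that group is a direction in the libraries so labelled.

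Totals of estimated counts lay between 18216896 and 19796036 per library. The 2 shScr libraries differed from each other more than those of either hairpin group did: chi-square per degree of freedom over genes was 30.8, against 5.94 in shPkm1 and 6.66 in shPkm2, and the correlation of log2 CPM across genes was 0.988, against 0.994 and 0.994. The fit uses 1 estimate of the spread per gene for all groups, so it does not carry this difference. Markers of muscle and of the cell cycle separated the groups. The summed level of 16 myoblast and myotube markers was 56960 and 40815 TPM in shScr, 19266 and 20672 in shPkm1, and 1446 and 1368 in the libraries labelled shPkm2. Of the 15 markers tested, 14 were lower in each hairpin group (93.3%, against 31.4% of all genes tested in shPkm1 and 34.2% in shPkm2). Myf5 was higher in the group labelled shPkm2. The summed level of 20 cell-cycle and replication genes ran the other way, at 369 and 489, 820.4 and 802, and 2386 and 2260 TPM. Myog, the transcription factor that marks entry into myotube formation, fell by 0.94 and 5.35 on the log2 scale against shScr (shPkm1 and shPkm2, adjusted p = 3.19e-05 and 1.06e-11), and Mki67, a protein of cycling nuclei, rose by 1.46 and 2.90 (adjusted p = 5.43e-07 and 5.31e-10). The part of these 2 sets in the differences described below was not tested. In such bulk samples fewer cells of a type and less RNA per cell cannot be told apart. Of the other lineages, the listed adipocyte, endothelial, leukocyte and bone or cartilage markers each summed to at most 3.62 TPM in any library. Only 3 of the listed adipocyte genes and 1 of the leukocyte genes were in the expression table. That leukocyte gene was called higher in both hairpin groups (log2 change 1.02 and 1.22). The epithelial markers, of which Krt14 had between 25 and 525 counts per library, summed to 1.6 and 3.49 TPM in shScr, 28.8 and 35.1 in shPkm1 and 6.81 and 6.85 in the libraries labelled shPkm2, while Epcam was at 0 counts in all 6.

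The promoters of 4 genes are shown, as examples of steps at the entry to the pentose phosphate pathway and to deoxynucleotides that were called higher in the libraries labelled shPkm2: G6pdx, which opens the oxidative pentose phosphate arm, the ribonucleotide reductase subunits Rrm1 and Rrm2, and Tyms, which makes thymidylate. Each is the 250 bases before the RefSeq start on the gene's own strand in GRCm38.p6, and capitals mark the motif words found in it.
G6pdx, chrX:74428881-74429130, minus strand: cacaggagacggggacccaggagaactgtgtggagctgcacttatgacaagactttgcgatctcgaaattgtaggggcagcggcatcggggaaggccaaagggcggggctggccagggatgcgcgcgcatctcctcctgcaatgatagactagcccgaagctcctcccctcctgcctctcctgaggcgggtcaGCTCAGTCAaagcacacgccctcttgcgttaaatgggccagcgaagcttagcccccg
Rrm1, chr7:102441445-102441694, plus strand: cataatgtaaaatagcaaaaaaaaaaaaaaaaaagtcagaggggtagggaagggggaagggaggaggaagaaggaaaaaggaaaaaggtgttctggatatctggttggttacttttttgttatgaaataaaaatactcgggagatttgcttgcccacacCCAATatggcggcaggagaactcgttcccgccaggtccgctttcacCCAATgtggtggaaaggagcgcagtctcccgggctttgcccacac
Rrm2, chr12:24708004-24708253, plus strand: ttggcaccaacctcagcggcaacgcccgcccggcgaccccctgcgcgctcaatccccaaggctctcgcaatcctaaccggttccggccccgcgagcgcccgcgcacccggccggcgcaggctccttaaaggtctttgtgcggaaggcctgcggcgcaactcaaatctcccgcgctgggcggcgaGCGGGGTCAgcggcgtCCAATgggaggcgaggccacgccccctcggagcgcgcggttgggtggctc
Tyms, chr5:30073626-30073875, minus strand: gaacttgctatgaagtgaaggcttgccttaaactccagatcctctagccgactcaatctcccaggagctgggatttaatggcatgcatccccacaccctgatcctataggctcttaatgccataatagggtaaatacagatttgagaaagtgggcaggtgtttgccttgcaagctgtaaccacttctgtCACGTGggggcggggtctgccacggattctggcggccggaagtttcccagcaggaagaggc
The words searched on both strands were the E-box CACGTG, the E2F words TTTGGCGC, TTTCCCGC, TTTCGCGC and TTTGCCGC, the CCAAT box, and the antioxidant response core TGACNNNGC. The capitals in G6pdx are an antioxidant response core read on the other strand, those in Rrm1 are CCAAT boxes, those in Rrm2 an antioxidant response core, also on the other strand, and a CCAAT box, and those in Tyms an E-box. No match overlapped another in these 4 windows.

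In windows that ran from 250 bases before to 50 after the start, which RefSeq gave for 31 of the 33 genes (none for Pfas and Dhodh), 6 of 31 enzyme genes held the E-box (19.4%), against 8.09% of 27025 genes with a window. The antioxidant response core was in 6 of 31 (19.4%) against 14.0% of all genes, and the CCAAT box in 12 of 31 (38.7%) against 41.1%. An E2F word was in 2 of 31 (6.45%; Ppat and Prps2) against 2.6% of all genes, and in none of the 6 windows of the deoxynucleotide genes. The genes with a window include ones that were not tested here, whereas all 33 enzymes were tested. A gene counts if any of its windows holds the word, so genes with several windows have more chances. A match is only a run of letters, and its absence says only that these letters are not in the window.

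Across the 33 enzymes, the group labelled shPkm2 had more genes above shScr than the group shPkm1 had. Changes there ran from -1.07 for Impdh1 to 2.34 for G6pdx on the log2 scale, and those in shPkm1 from -0.86 for Dhodh to 1.48 for Adss. Against shScr, 13 of the 33 were higher and 8 lower in shPkm1 at an adjusted p of 0.05 (39.4% and 24.2%; of all 12643 genes tested, 31.8% were called higher and 31.4% lower). The group labelled shPkm2 had 20 higher and 6 lower (60.6% and 18.2%, against 33.9% and 34.2% of all genes). Compared directly, 19 were higher and 1 lower in the group labelled shPkm2 than in shPkm1 (57.6% and 3.03%, against 25.7% and 27.3% of all genes); without shScr library 1 or 2, 3 were lower. In either direction the calls were 63.6% of the enzymes against 63.1% of all genes for shPkm1, 78.8% against 68.0% for shPkm2, and 60.6% against 53.0% for the direct comparison.

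The sizes differed between the contrasts in the same way. The median log2 change of the 33 was 0.06 in shPkm1 (all genes 0), 0.63 in the libraries labelled shPkm2 (all genes 0.01) and 0.32 in the direct comparison (all genes 0). Changes of at least 2-fold were called for 2 enzymes in shPkm1 (6.06%, against 22.1% of all genes), 11 in the libraries labelled shPkm2 (33.3% against 27.9%) and 7 in the direct comparison (21.2% against 18.6%). The shPkm1 share of 2-fold changes lay below that of all genes. Both contrasts with shScr use the same 2 control libraries, so they are not independent of each other. Scaling to library totals alone raised the median of all genes by 0.19, 0.33 and 0.14 in the 3 contrasts and the share of calls that were higher from 50.3% to 65.8%, from 49.8% to 69.3% and from 48.4% to 61.3%. The changes below are relative to the median gene.

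**Figure D1:**
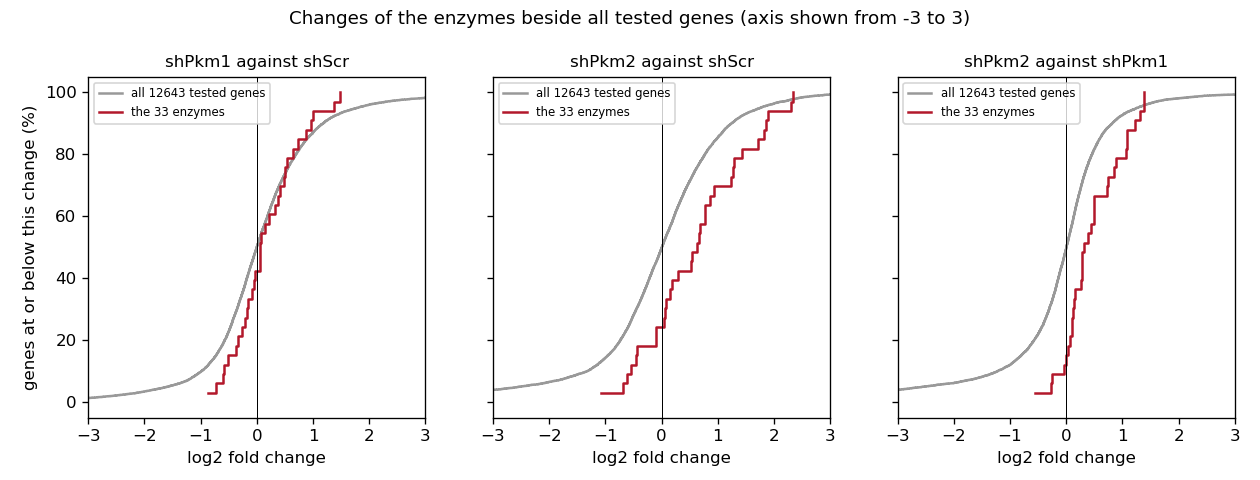
Cumulative share of genes (percent, vertical axis) at or below each log2 fold change (horizontal axis, shown from -3 to 3) for all 12643 genes tested (grey) and the 33 enzymes (red), in 3 panels, 1 per contrast. The red curve crosses 50% near the grey one in shPkm1 (medians 0.06 and 0) and to its right in the libraries labelled shPkm2 (0.63 and 0.01).

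**Figure D2:**
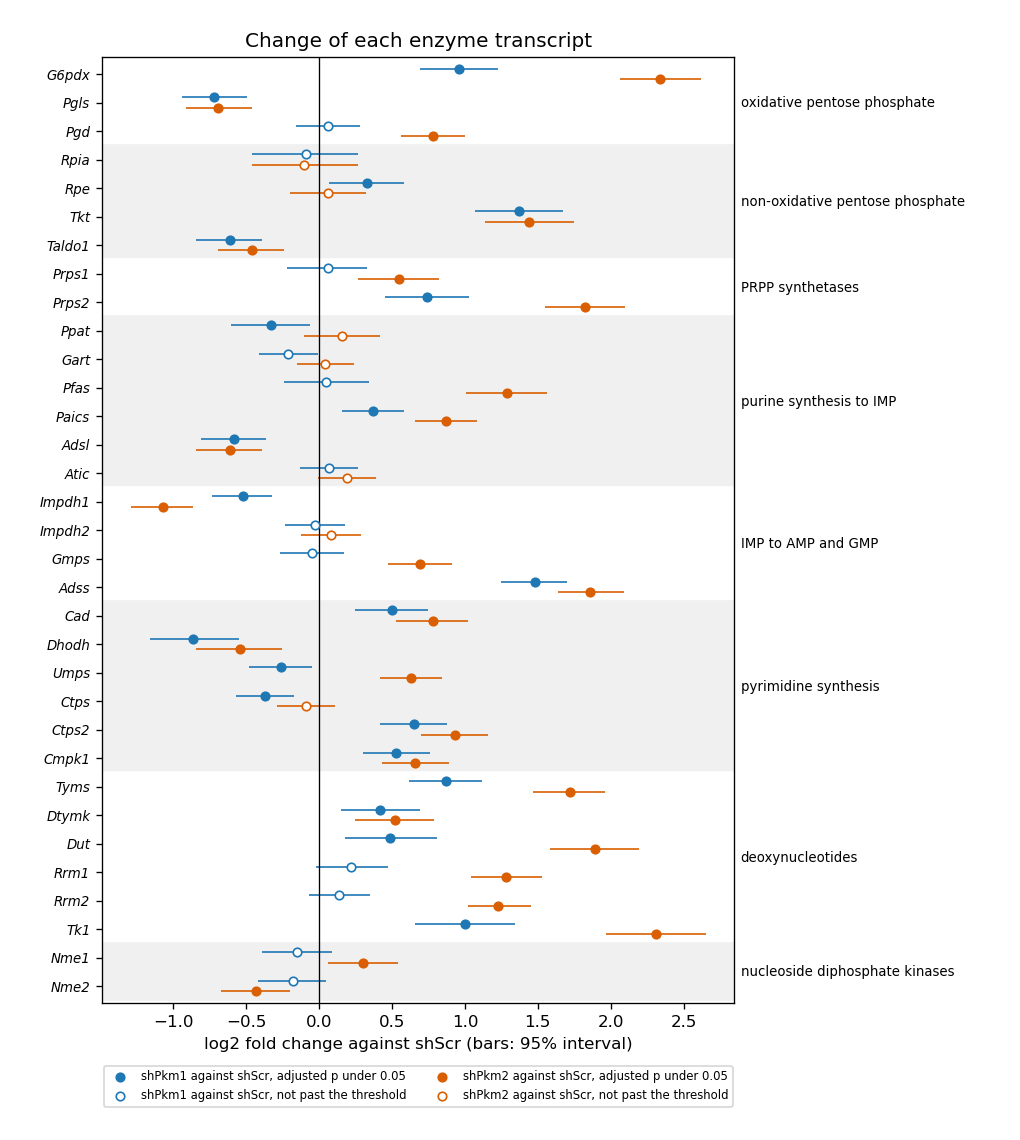
Log2 fold change of each of the 33 enzymes against shScr, in blue for shPkm1 and orange for the libraries labelled shPkm2, with 95% intervals; filled points have an adjusted p under 0.05, and shaded bands separate the roles. The 6 deoxynucleotide enzymes lie to the right of 0 in both groups, from 0.14 to 1.00 and from 0.52 to 2.31.

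In the oxidative arm, the genes of the 2 NADPH-producing steps were higher in the libraries labelled shPkm2 and that of the step between them was lower. G6pdx, glucose 6-phosphate dehydrogenase, which catalyses the rate-limiting step (chromosome X, 74409483 to 74428880), had 43.0 and 57.7 CPM (counts relative to library size, scaled by edgeR's TMM factors) in shScr, 99.99 and 96.37 in shPkm1, and 256 and 255 in the libraries labelled shPkm2. The 3 groups did not overlap and stood in that order. Its log2 change was 0.96 (SE 0.126, adjusted p = 2.26e-05) in shPkm1, 2.34 (SE 0.128, adjusted p = 3.46e-09) in shPkm2, which is 5.06-fold, and 1.38 (SE 0.123, adjusted p = 7.43e-07) between the hairpin groups.

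Pgd, 6-phosphogluconate dehydrogenase, had 167 and 179 CPM in shScr, 175 and 185 in shPkm1, and 279 and 314 in the libraries labelled shPkm2. Only the last pair stood apart: the log2 change was 0.06 (adjusted p = 0.631; 95% interval -0.16 to 0.28) in shPkm1, 0.78 (SE 0.103, adjusted p = 1.71e-05) in shPkm2 and 0.72 (SE 0.102, adjusted p = 5.69e-05) between them. Pgls, the lactonase between both dehydrogenases, had 178 and 188 CPM in shScr, 102 and 120.2 in shPkm1, and 111 and 116 in the libraries labelled shPkm2. Each hairpin library lay below both shScr libraries. Its log2 change was -0.72 (SE 0.105, adjusted p = 5.96e-05) and -0.69 (SE 0.104, adjusted p = 6.05e-05), and the hairpin groups overlapped (difference 0.03, 95% interval -0.20 to 0.25). Measured per length, Pgls remained among the more abundant enzymes, at 231 to 337 TPM over the 6 libraries.

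In the non-oxidative arm, Tkt was higher and Taldo1 lower in both hairpin groups, and none of the 4 enzymes was called between those groups with TMM scaling and all libraries in the fit. Tkt, transketolase, which passes carbon units between sugar phosphates, had 32.3 and 43.7 CPM in shScr, 90.0 and 107 in shPkm1, and 109 and 98.8 in the libraries labelled shPkm2. All 4 hairpin libraries lay above both shScr libraries and the hairpin groups overlapped. The log2 change was 1.37 (SE 0.139, adjusted p = 2.4e-06) and 1.44 (SE 0.139, adjusted p = 9.14e-07), and the difference between the hairpin groups was 0.07 (95% interval -0.21 to 0.36, adjusted p = 0.671).

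Taldo1, transaldolase, its partner in that arm, had 187 and 176 CPM in shScr, 109 and 128 in shPkm1, and 132 and 131 in the libraries labelled shPkm2. All 4 hairpin libraries lay below both shScr libraries. The log2 change was -0.61 in shPkm1 (SE 0.104, adjusted p = 0.000198) and -0.46 in shPkm2 (SE 0.103, adjusted p = 0.00132). With library totals alone the second value was -0.14 (adjusted p = 0.242), and the direct difference, 0.15 (adjusted p = 0.246) otherwise, was called at 0.28 (adjusted p = 0.0333). Rpe, the ribulose phosphate epimerase, had 17.2 and 18.4 CPM in shScr, 23.5 and 21.2 in shPkm1, and 17.7 and 19.4 in the libraries labelled shPkm2. Only the shPkm1 pair stood above shScr (0.33, SE 0.119, adjusted p = 0.0278; 0.28 and adjusted p = 0.0694 without shScr library 1, 0.27 and adjusted p = 0.154 without shPkm1 library 1). With library totals alone Rpe was also called higher in shPkm2 (0.38, adjusted p = 0.0184). Its direct difference of -0.27 (adjusted p = 0.0681) was called with only the groups compared (adjusted p = 0.029) and without shScr library 1 (adjusted p = 0.0293) or 2 (adjusted p = 0.03). Rpia, the ribose phosphate isomerase, lay between 8.75 and 12.1 CPM in all 6 libraries with overlapping groups and no call in any contrast.

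Both PRPP synthetases were higher in the libraries labelled shPkm2, and Prps2 rose more. Prps2 (chromosome X, 167346320 to 167382872) had 7.73 and 8.59 CPM in shScr, 14.5 and 12.8 in shPkm1, and 29.2 and 28.7 in the libraries labelled shPkm2. The groups stood apart in that order. The log2 changes were 0.74 (SE 0.135, adjusted p = 0.000351), 1.82 (SE 0.128, adjusted p = 4.13e-08) and, between the hairpins, 1.08 (SE 0.119, adjusted p = 5.71e-06). Prps1 had 27.1 and 22.7 CPM in shScr, 27.3 and 24.4 in shPkm1, and 33.2 and 39.2 in the libraries labelled shPkm2. Its shPkm1 pair overlapped shScr (0.06, adjusted p = 0.716) and the last pair lay above (0.55, SE 0.126, adjusted p = 0.00175). Its direct difference of 0.49 (adjusted p = 0.00491) was no longer called without shPkm1 library 2 (0.41, adjusted p = 0.0673) or shPkm2 library 2 (0.36, adjusted p = 0.0838). Prps1 remained the more abundant per length: the ratio of Prps1 to Prps2 TPM was 6.33 and 5.05 in shScr, 3.51 and 3.56 in shPkm1, and 2.13 and 2.57 in the libraries labelled shPkm2. Prps1l3, a gene closely similar to Prps1 with which it may share reads, had log2 changes of 0.13, 0.78 and 0.65 in the 3 contrasts. The level of Prps1 itself is uncertain to that extent.

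**Figure D3:**
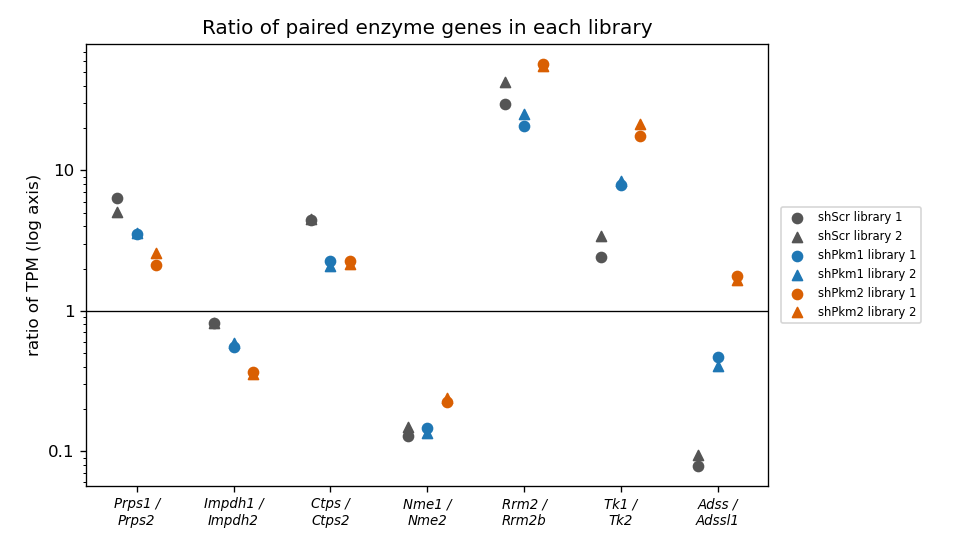
Ratio of the TPM of 2 related genes in each of the 6 libraries (log axis); circles are library 1 and triangles library 2 of a group, and the line marks equal levels. Prps1 to Prps2, Impdh1 to Impdh2 and Ctps to Ctps2 were lower in all 4 hairpin libraries than in both shScr libraries, and Adss to Adssl1 and Tk1 to Tk2 were higher.

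Of the 6 enzymes of the purine route to inosine monophosphate (IMP), 1 was higher (16.7%) and 2 lower (33.3%) in shPkm1, against 31.8% and 31.4% of all genes tested. In the group labelled shPkm2 the counts were 2 (33.3%) and 1 (16.7%), against 33.9% and 34.2%. Paics and Pfas were higher and Adsl lower in the libraries labelled shPkm2, while Ppat, Gart and Atic were not called there. With library totals alone these 3 were called higher in shPkm2, Ppat by 0.49 (adjusted p = 0.00225), Gart by 0.37 (adjusted p = 0.00489) and Atic by 0.52 (adjusted p = 0.000453). With TMM scaling the Ppat change in shPkm2 was 0.16 with all libraries. It was 0.34 without shScr library 1 and 0.01 without shScr library 2. Pfas, which makes the amidine intermediate, had 10.8 and 11.8 CPM in shScr, 11.1 and 12.3 in shPkm1, and 29.18 and 25.96 in the libraries labelled shPkm2. The first 2 pairs overlapped and the last stood far above them. The log2 changes were 0.05 (adjusted p = 0.759; 95% interval -0.24 to 0.34), 1.29 (SE 0.127, adjusted p = 1.15e-06) and 1.23 (SE 0.125, adjusted p = 2.5e-06) in the 3 contrasts. Pfas was also the least abundant enzyme of the route per length, at 2.21 and 2.7 TPM in shScr and 8.89 and 7.5 in the libraries labelled shPkm2.

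Paics, a bifunctional carboxylase and ligase, had 106 and 96.4 CPM in shScr, 135 and 127 in shPkm1, and 184 and 186 in the libraries labelled shPkm2. Its groups stood apart in that order, by 0.37 (SE 0.0984, adjusted p = 0.00517), 0.87 (SE 0.0984, adjusted p = 4.27e-06) and 0.50 (SE 0.0973, adjusted p = 0.000771). The first was not called without shPkm1 library 1 (0.34, adjusted p = 0.0513). Ppat, the amidotransferase that commits PRPP to purines, had 32.01 and 25.48 CPM in shScr, 23.4 and 22.3 in shPkm1, and 31.2 and 33.1 in the libraries labelled shPkm2. The shPkm1 pair was lowest (-0.33, SE 0.124, adjusted p = 0.032), a call that was lost without any of 5 libraries (-0.16 and adjusted p = 0.282 without shScr library 1; -0.13 and adjusted p = 0.36 with library totals alone), and shPkm2 was above shPkm1 by 0.49 (SE 0.122, adjusted p = 0.00387). Ppat and Paics lie head to head on chromosome 5 with overlapping annotated 5′ ends whose starts lie 276 bases apart, and whether the libraries kept strand is not given in the sources used here, so reads from that overlap cannot be assigned by strand.

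Adsl, the lyase that acts both here and on the way to AMP, had 148 and 132 CPM in shScr, 87.0 and 100 in shPkm1, and 91.9 and 91.2 in the libraries labelled shPkm2. Every hairpin library lay below both shScr libraries. The log2 change was -0.58 in shPkm1 (SE 0.105, adjusted p = 0.000331) and -0.61 in shPkm2 (SE 0.105, adjusted p = 0.000168; -0.28 and adjusted p = 0.0543 with limma on log2(FPKM + 0.1)). The hairpin groups differed by -0.03 (95% interval -0.26 to 0.20). Gart, a trifunctional enzyme of the route, had 77.8 and 79.2, 67.5 and 67.9, and 81.4 and 80.6 CPM, and was called only between the hairpin groups (0.26, SE 0.0915, adjusted p = 0.0295), a call lost when any of their 4 libraries was left out. Atic, which closes the ring, lay between 116 and 135 CPM in all libraries; its groups did not overlap, but no contrast was called with TMM scaling. With library totals alone Atic was also called higher in shPkm1 (0.26, adjusted p = 0.038) and in the direct comparison (0.26, adjusted p = 0.0445).

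After IMP, Adss on the branch to AMP was higher and Impdh1 on the branch to GMP lower in both hairpin groups. Adss, the adenylosuccinate synthetase found in most tissues (chromosome 1, 177763176 to 177796695), had 19.0 and 20.2 CPM in shScr, 55.6 and 53.5 in shPkm1, and 69.4 and 73.3 in the libraries labelled shPkm2. Every hairpin library was above both shScr libraries and the 3 groups did not overlap. The log2 change in shPkm1 was 1.48 (SE 0.104, adjusted p = 9.05e-08; 2.78-fold). That in shPkm2 was 1.86 (SE 0.104, adjusted p = 4.04e-09; 3.64-fold). The direct difference was 0.39 (SE 0.0958, adjusted p = 0.00406; 0.34 and adjusted p = 0.0586 without shPkm2 library 2). The muscle isozyme Adssl1 moved against it, from 167 and 149 CPM in shScr to 81.8 and 91.8 in shPkm1 and 26.9 and 30.5 in the libraries labelled shPkm2. It fell by 0.86 and 2.46 on the log2 scale (adjusted p = 1.51e-05 and 7.85e-10). The ratio of Adss to Adssl1 TPM went from 0.0787 and 0.0941 to 0.471 and 0.404, and to 1.78 and 1.66, so that Adss was the more abundant of the pair only in the libraries labelled shPkm2.

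Impdh1, an isozyme of the dehydrogenase that commits IMP to GMP, was the only one of the 33 that was lower in all 3 contrasts. It had 197 and 195 CPM in shScr, 129 and 143 in shPkm1, and 92.6 and 93.3 in the libraries labelled shPkm2, in groups that did not overlap. Its log2 changes were -0.52 (SE 0.0962, adjusted p = 0.000385), -1.07 (SE 0.0974, adjusted p = 5.03e-07; 2.11-fold lower) and -0.55 (SE 0.097, adjusted p = 0.000341). Its main transcript, NM_011829.3, held at least 84.3% of its counts in every library and fell by 0.44, 1.06 and 0.62 on the log2 scale (adjusted p = 0.017, 0.00146 and 0.00823 over all transcripts tested).

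The other isozyme, Impdh2, lay between 160.0 and 181 CPM in all libraries and was not called in any contrast (0.08 in shPkm2, 95% interval -0.12 to 0.29; 0.41 and adjusted p = 0.00219 with library totals alone). The Impdh1 to Impdh2 ratio of TPM was 0.819 and 0.814 in shScr, 0.555 and 0.588 in shPkm1, and 0.367 and 0.357 in the libraries labelled shPkm2. Gmps, GMP synthetase, which follows them, had 62.5 and 55.3 CPM in shScr, 59.2 and 54.5 in shPkm1, and 93.5 and 96.1 in the libraries labelled shPkm2. Only the last pair stood apart (0.69, SE 0.101, adjusted p = 4.49e-05), and the shPkm1 pair overlapped shScr (-0.05, adjusted p = 0.69).

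Of the 6 pyrimidine enzymes, 3 were higher (50%) and 3 lower (50%) in shPkm1, against 31.8% and 31.4% of all genes tested. In the group labelled shPkm2 the counts were 4 (66.7%) and 1 (16.7%), against 33.9% and 34.2%. Cad, Ctps2 and Cmpk1 were higher in both hairpin groups and Dhodh was lower in both. Cad, the trifunctional enzyme of the opening steps, had 66.4 and 79.2 CPM in shScr, 95.5 and 110.2 in shPkm1, and 130.1 and 119 in the libraries labelled shPkm2. It rose by 0.50 in shPkm1 (SE 0.115, adjusted p = 0.0021) and by 0.78 in shPkm2 (SE 0.115, adjusted p = 4.8e-05). Its direct difference of 0.28 (adjusted p = 0.0527) was called in 6 of 16 settings, among them the fits without shScr library 1 (adjusted p = 0.00496) or 2 (adjusted p = 0.00483). Dhodh, the dehydrogenase of the inner mitochondrial membrane, had 23.6 and 19.4 CPM in shScr, 11.02 and 12.69 in shPkm1, and 13.9 and 15.7 in the libraries labelled shPkm2. Both hairpin pairs lay below shScr. The log2 change in shPkm1 was -0.86 (SE 0.141, adjusted p = 0.000157). In shPkm2 it was -0.54 (SE 0.137, adjusted p = 0.0033; -0.21 and adjusted p = 0.163 with library totals alone). The direct difference of 0.32 (adjusted p = 0.0778) was called in 6 of 16 settings, among them library totals alone (0.45, adjusted p = 0.0138) and the fits without shScr library 1 (adjusted p = 0.022) or 2 (adjusted p = 0.0212). Umps, which completes UMP, was the only one of the 33 called in opposite directions in the hairpin groups. It had 46.0 and 45.4 CPM in shScr, 37.1 and 39.0 in shPkm1, and 67.6 and 73.8 in the libraries labelled shPkm2. Against shScr the change in shPkm1 was -0.26 (SE 0.1, adjusted p = 0.0346; not called without any 1 of the 4 hairpin libraries, and -0.07 with adjusted p = 0.587 with library totals alone). That in shPkm2 was 0.63 (SE 0.0981, adjusted p = 7.75e-05), and the hairpin groups differed by 0.89 (SE 0.0985, adjusted p = 5.63e-06).

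The CTP synthetases differed from each other. Ctps had 73.6 and 78.7 CPM in shScr, 58.9 and 59.1 in shPkm1, and 71.1 and 72.3 in the libraries labelled shPkm2. The shPkm1 pair was lower than shScr (-0.37, SE 0.0941, adjusted p = 0.00404; -0.18 and adjusted p = 0.163 with library totals alone) and not called in the libraries labelled shPkm2 (-0.09, adjusted p = 0.421). Its isozyme Ctps2 had 22.4 and 24.6, 35.3 and 38.4, and 43.6 and 45.8 CPM. It rose by 0.65 in shPkm1 (SE 0.108, adjusted p = 0.000172) and by 0.93 in shPkm2 (SE 0.107, adjusted p = 5e-06). The Ctps to Ctps2 ratio of TPM was therefore 4.4 and 4.48 in shScr and between 2.08 and 2.27 in the 4 hairpin libraries. Direct differences of 0.28 for both genes (adjusted p = 0.022 and 0.037) were lost when any hairpin library was left out. Cmpk1, the UMP and CMP kinase, had 31.9 and 29.8 CPM in shScr against 42.1 to 50.9 in the 4 hairpin libraries, a rise of 0.53 (SE 0.107, adjusted p = 0.000833) and 0.66 (SE 0.107, adjusted p = 9.85e-05).

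All 6 deoxynucleotide enzymes were called higher in the group labelled shPkm2, with a median log2 change of 1.5. In shPkm1 4 of 6 were called higher, with a median of 0.46. In the direct comparison 5 of 6 were higher, with a median of 1.08, and none was called lower in any contrast. Of all genes tested, 33.9%, 31.8% and 25.7% were called higher in these 3 contrasts. Their summed level was 199 and 255 TPM in shScr, 389.9 and 388 in shPkm1, and 808 and 829 in the libraries labelled shPkm2. The 20 cell-cycle and replication genes are given as context and were also listed with earlier results of these data known. They had 14 calls higher in shPkm1 (median 0.68), 20 in shPkm2 (median 2.13) and 20 in the direct comparison (median 1.40), and none lower. A link between the 2 sets was not tested.

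Tk1, cytosolic thymidine kinase, which is known to rise in S phase (chromosome 11, 117815519 to 117826087), had 24.5 and 37.7 CPM in shScr, 59.7 and 64.9 in shPkm1, and 146 and 163 in the libraries labelled shPkm2. The groups stood apart in that order, by 1.00 (SE 0.158, adjusted p = 0.000116), 2.31 (SE 0.159, adjusted p = 3.27e-08; 4.96-fold) and 1.31 (SE 0.151, adjusted p = 8.07e-06). Its mitochondrial counterpart Tk2 was lower in both hairpin groups (-0.47, adjusted p = 0.00484; -0.41, adjusted p = 0.00927). The Tk1 to Tk2 ratio of TPM was 2.42 and 3.4, 7.86 and 8.45, and 17.6 and 21.3. Tyms, thymidylate synthase, had 18.1 and 21.1 CPM in shScr, 35.9 and 35.7 in shPkm1, and 61.4 and 67.7 in the libraries labelled shPkm2. These again were 3 separate groups, with changes of 0.87 (SE 0.115, adjusted p = 2.5e-05), 1.72 (SE 0.113, adjusted p = 2.13e-08) and 0.85 (SE 0.107, adjusted p = 1.92e-05).

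The subunits of ribonucleotide reductase, which turns ribonucleotides into deoxynucleotides, differed from Tk1 and Tyms in shPkm1. Rrm1, the large subunit (chromosome 7, 102441695 to 102469771), had 112 and 140.2 CPM in shScr, 147 and 148 in shPkm1, and 298 and 316 in the libraries labelled shPkm2. Rrm2, the small subunit that is made in cycling cells (chromosome 12, 24708254 to 24714146), had 132 and 144, 151 and 153, and 318 and 330.1 CPM. For both, the shPkm1 pair lay just above shScr and was not called (0.22, adjusted p = 0.105; 0.14, adjusted p = 0.214). The libraries labelled shPkm2 lay far above (1.28, SE 0.115, adjusted p = 4.41e-07; 1.23, SE 0.0981, adjusted p = 1.39e-07). The Rrm1 change in shPkm1 was 0.39 without shScr library 2 and 0.07 without shScr library 1. Both genes were called higher in shPkm1 with library totals alone (Rrm1 0.41, adjusted p = 0.0131, and Rrm2 0.34, adjusted p = 0.0149). The alternative small subunit Rrm2b, a p53 target, was higher in both groups (0.76, adjusted p = 0.0014; 0.57, adjusted p = 0.00786). Rrm2 exceeded it per length by 29.5 and 42.6 times in shScr, 20.8 and 25.3 times in shPkm1, and 57.1 and 55.5 times in the libraries labelled shPkm2.

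Dut, which removes dUTP and supplies dUMP to Tyms, had 11.9 and 16.0 CPM in shScr, 18.8 and 20.6 in shPkm1, and 48.3 and 55.4 in the libraries labelled shPkm2. The groups stood apart in that order. Its change was 1.89 in shPkm2 (SE 0.141, adjusted p = 7.45e-08), 1.39 between the hairpin groups (SE 0.135, adjusted p = 1.66e-06) and 0.49 in shPkm1 (SE 0.147, adjusted p = 0.0101), where the call was lost without shScr library 1 (0.30, adjusted p = 0.0639) or shPkm1 library 2 (0.43, adjusted p = 0.0768). By transcript, NM_023595.6 carried 61% and 69.4% of Dut counts in shScr, 90.4% and 78.4% in shPkm1, and 82.6% and 78% in the libraries labelled shPkm2, and rose by 2.20 there (adjusted p = 0.00713). The other Dut transcript had no call in any contrast. Dtymk, thymidylate kinase, went from 25.5 and 21.6 CPM in shScr to between 29.6 and 36.5 in the hairpin libraries (0.42, adjusted p = 0.011, and 0.33, adjusted p = 0.0969 without shPkm1 library 2; 0.52, SE 0.125, adjusted p = 0.00223).

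**Figure D4:**
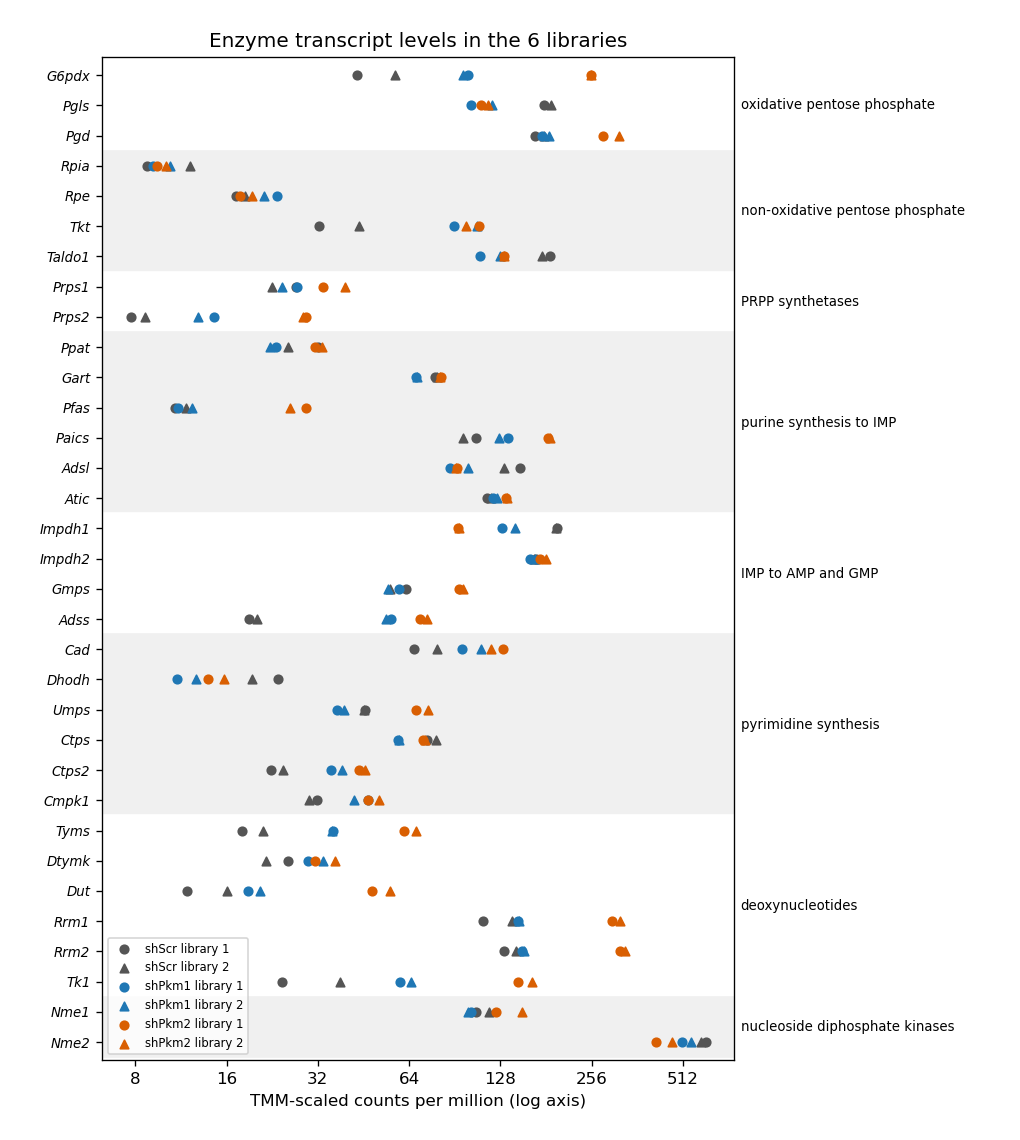
Normalised CPM of each of the 33 enzymes in each of the 6 libraries (log axis), grouped by role; grey is shScr, blue shPkm1 and orange shPkm2, with circles for library 1 and triangles for library 2. For G6pdx, Prps2, Tyms and Tk1 the 3 groups stand apart in the order shScr, shPkm1, shPkm2, whereas for Rrm1 and Rrm2 the shPkm1 points lie beside shScr.

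The nucleoside diphosphate kinases, which equalise the triphosphate pools, had no call in shPkm1 and went in opposite directions in the libraries labelled shPkm2. Nme2 was the most abundant of the 33 per length, at 911 to 1107 TPM in the 6 libraries, and had 608 and 587 CPM in shScr, 510.0 and 543 in shPkm1, and 416 and 470 in the libraries labelled shPkm2. That last group was lower than shScr (-0.43, SE 0.109, adjusted p = 0.00319; -0.34 and adjusted p = 0.0695 without shPkm2 library 1; -0.11 and adjusted p = 0.379 with library totals alone). Its direct difference of -0.25 (adjusted p = 0.07) was called in 4 of 16 settings, among them the fits without shScr library 1 (adjusted p = 0.0175) or 2 (adjusted p = 0.0184). Nme1 had 107 and 118, 102 and 100.1, and 124 and 151 CPM, a rise of 0.30 in shPkm2 (SE 0.111, adjusted p = 0.0302) that was lost without shPkm2 library 2 (0.15, adjusted p = 0.365), shScr library 1 (0.23, adjusted p = 0.0653), shPkm1 library 1 (0.30, adjusted p = 0.0559) or shPkm1 library 2 (0.30, adjusted p = 0.053). Its direct difference of 0.44 (adjusted p = 0.00428) became 0.29 (adjusted p = 0.108) without shPkm2 library 2. The 2 genes are neighbours on chromosome 11 with closely similar sequences, and how reads they share were divided is not given in the sources used here, so their separate levels are uncertain.

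**Figure D5:**
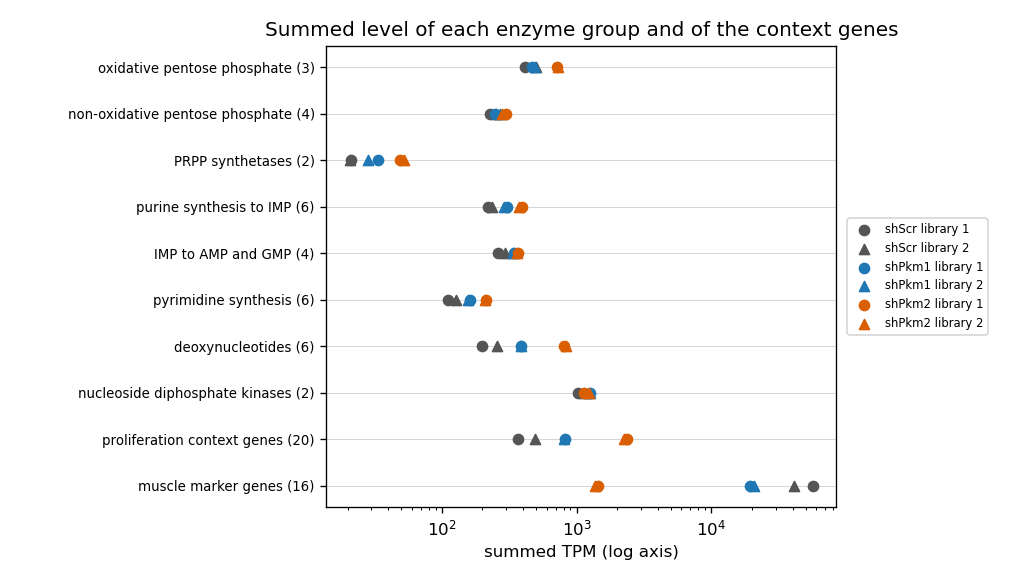
Summed TPM (log axis) of the enzymes of each role, of the 20 cell-cycle and replication genes and of the 16 muscle markers in each library; circles are library 1 and triangles library 2 of a group. The deoxynucleotide sum goes from 199 and 255 in shScr to 808 and 829 in the libraries labelled shPkm2, whereas the nucleoside diphosphate kinase sums of all 6 libraries lie between 1028 and 1268.

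Sorted by their calls, 8 of the 33 were higher in both hairpin groups and higher still in that labelled shPkm2 (G6pdx, Prps2, Paics, Adss, Ctps2, Tyms, Dut and Tk1), which is 24.2% against 7.4% of all genes tested. Another 4 were higher in both without a call between them (Tkt, Cad, Cmpk1 and Dtymk; 12.1% against 10.3%), and 4 were lower in both without one (Pgls, Taldo1, Adsl and Dhodh; 12.1% against 13.3%). Of these 8, Cad and Dhodh were each called between the hairpin groups in 6 of 16 settings, Taldo1 in 2 and Dtymk in 1. A further 7 were higher in the libraries labelled shPkm2 than in either other group and had no call between shPkm1 and shScr (Pgd, Prps1, Pfas, Gmps, Rrm1, Rrm2 and Nme1; 21.2% against 8.69%). Rpia, Atic and Impdh2 had no call with TMM scaling (9.09% against 14.9%). The transcripts of the 33 genes summed to 2480 and 2823 TPM in shScr, 3214 and 3220 in shPkm1, and 3983 and 4072 in the libraries labelled shPkm2. These sums also move with the share of TPM that muscle transcripts take.

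Salvage, breakdown, one-carbon and transport genes of nucleotide metabolism were read from a list of 58, of which 54 were tested. Of these, 12 were higher and 22 lower in shPkm1 (22.2% and 40.7%, against 31.8% and 31.4% of all genes; median -0.19). The libraries labelled shPkm2 had 19 and 20 (35.2% and 37%, against 33.9% and 34.2%; median -0.02). The direct comparison had 19 and 14 (35.2% and 25.9%, against 25.7% and 27.3%; median 0.11; 9 lower without shPkm1 library 2 or shPkm2 library 1). In either direction the calls were 63%, 72.2% and 61.1% of the 54, against 63.1%, 68.0% and 53.0% of all genes. Dck, deoxycytidine kinase, which salvages deoxynucleosides, had 8.43 and 9.21 CPM in shScr, 16.9 and 16.0 in shPkm1, and 27.6 and 29.7 in the libraries labelled shPkm2. The groups stood apart in that order (0.90, adjusted p = 4.88e-05; 1.70, adjusted p = 5.9e-08). Cmpk2, a mitochondrial nucleotide kinase that interferon induces, went the other way, from 38.2 and 31.0 CPM in shScr to 0.32 and 0.303 in shPkm1 and 3.91 and 4.63 in the libraries labelled shPkm2. The log2 change was -6.76 (SE 0.241, adjusted p = 1.38e-10) and -3.01 (SE 0.157, adjusted p = 2.2e-09). Samhd1, which degrades deoxynucleotides, fell in both groups (-1.06, adjusted p = 6.96e-07; -0.58, adjusted p = 8.88e-05).

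Of the deaminases, Cda rose by 1.91 and 1.73 (adjusted p = 6.11e-05 and 0.000111) and Ada by 1.47 and 1.52 (adjusted p = 1.7e-05 and 8.09e-06), and the hairpin groups differed by -0.18 and 0.05 (adjusted p = 0.538 and 0.817). Nt5e, the ectoenzyme that makes adenosine from AMP, was higher in shPkm1 (11.2 and 12.2 CPM, against 2.66 and 0.904 in shScr; 2.74, SE 0.304, adjusted p = 5.38e-06). It was not called in the libraries labelled shPkm2 (2.21 and 2.34 CPM; 0.38, adjusted p = 0.359; direct difference -2.36, SE 0.281, adjusted p = 1.14e-05). Upp1, uridine phosphorylase, and Mtap, which salvages adenine from methylthioadenosine, were higher in the libraries labelled shPkm2 (1.21, adjusted p = 4.53e-05; 1.55, adjusted p = 2.84e-08) and were not called in shPkm1 (-0.44, adjusted p = 0.0699; 0.21, adjusted p = 0.106). The transporter Slc29a2 fell in both groups (-1.36, adjusted p = 4.31e-06; -1.27, adjusted p = 4.56e-06), and Gmpr, which returns GMP to IMP, fell by 0.71 and 2.01 (adjusted p = 0.00219 and 4.45e-07).

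Of the remaining relatives of the 33, the PRPP synthetase-associated protein gene Prpsap1 was lower in shPkm1 (-0.38, adjusted p = 0.00282) and Prpsap2 higher in the libraries labelled shPkm2 (0.70, adjusted p = 0.000372). H6pd, the hexose 6-phosphate dehydrogenase of the endoplasmic reticulum, lay between 64.4 and 74.9 CPM in all libraries and was not called. Against G6pdx, whose 3 groups stood apart, the H6pd values of the libraries labelled shPkm2 (70.2 and 72.4 CPM) differed from shScr by -0.04 on the log2 scale (adjusted p = 0.685). Tktl1, a transketolase-like gene, had 0 counts in all libraries.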

How the data were processed

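RNA of 6 libraries (2 per hairpin group) was measured by RNA-seq. The authors deposited a table of 57920 RefSeq transcripts with estimated counts, FPKM and TPM per library, per the file headers. The submitters' processing notes name HISAT, StringTie, Bowtie, RSEM and DESeq2 and the build mm10, without versions or roles; strandedness is not given in the sources used here. The 9 columns of group means were not used.

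Estimated counts were summed per NCBI gene number (17558 genes, 17445 with a symbol) and rounded. Genes that passed edgeR's filterByExpr (minimum count 10, minimum total 15; 12643 genes) were tested with edgeR 4.0.16 in R 4.3.3: TMM scaling, the quasi-likelihood F-test, all 6 libraries in 1 fit with 1 coefficient per group, two-sided, and Benjamini-Hochberg adjustment over all genes tested, with a threshold of 0.05. A change is called when it passes that threshold. Standard errors and 95% intervals come from the same fit. The 33433 transcripts that passed the filter were tested alike. Deposited TPM was used for levels between genes, for ratios and for the levels of transcripts and gene lists in each library. It was not used in the tests. With 2 libraries against 2, an exact permutation test of 1 gene cannot go below p = 0.333, so the fit across genes was used. On data drawn for the shPkm1 comparison, 94 of 100 genes changed by 1 on the log2 scale and 46 of 100 changed by 0.5 were called, with 6 calls among 11952 unchanged genes. The draw started from the shScr means, gave all genes and libraries the same spread, and changed 200 genes, as many up as down. It held neither the wider spread of the shScr pair nor changes in most genes, so these rates may not hold for the measured data.

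The 33 enzymes, the other lists and the promoter words were chosen with earlier results of these data known. All 33 are named; of the 58 other pathway genes, relatives of the 33 and the 3 largest called rises and falls per contrast with a mean of at least 50 counts are named, and Myog and Mki67 stand for the context lists. The result of 1 gene that this rule names is not reported here. Promoter windows come from RefSeq's table for GRCm38.p6. Alternatives were DESeq2 1.42.0 (size factors and its own test), library totals without a composition factor, other count filters, a fit with a block for the replicate number, a fit of only 2 groups at a time, limma 3.58.1 on log2(FPKM + 1) and log2(FPKM + 0.1), transcript shares by TPM, and leaving out each library.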

Additional observations from a re-analysis of the deposited data

How the results depend on the processing

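Of the 33 enzymes, 14 of the 21 calls in shPkm1, 21 of the 26 in shPkm2 and 14 of the 20 in the direct comparison held under every alternative run, and no enzyme was called in opposite directions by 2 settings. The counts of enzymes called higher stayed within 1.5 times under every alternative. With library totals alone they were 16 in shPkm1 (48.5%, against 40.5% of all genes) and 25 in shPkm2 (75.8% against 48.2%). In the direct comparison that setting gave 23 (69.7% against 33.9%). The 3 settings without a composition factor moved the lower calls and the medians; in the order library totals alone, limma on log2(FPKM + 1) and limma on log2(FPKM + 0.1), enzymes called lower numbered 5, 5 and 5 in shPkm1 and 3, 3 and 2 in shPkm2, and the median log2 change was 0.26, 0.25 and 0.26 in shPkm1 (all genes 0.19, 0.14 and 0.18) and 0.95, 0.90 and 0.95 in shPkm2 (all genes 0.33, 0.23 and 0.32). The lower calls were 15.2%, 15.2% and 15.2% of the enzymes in shPkm1, against 21%, 20.7% and 19.7% of all genes, and 9.09%, 9.09% and 6.06% in shPkm2, against 21.4%, 21% and 20.2%. In the direct comparison the median was 0.45 with library totals alone (all genes 0.14) and 0.44 with limma on log2(FPKM + 0.1) (all genes 0.13). Of the other pathway genes in shPkm1, 19 were higher with library totals alone (35.2%, against 40.5% of all genes) and 20 with limma on log2(FPKM + 1) (37% against 39.3%), and 14 were lower with library totals alone (25.9% against 21%) and with limma on log2(FPKM + 0.1) (25.9% against 19.7%). Those lower in shPkm2 numbered 12, 12 and 11 (22.2%, 22.2% and 20.4%, against 21.4%, 21% and 20.2%), and those lower in the direct comparison 9, 9 and 9 (16.7% each, against 21.3%, 20.4% and 19.8%). These settings differ from the main one in the composition factor by construction. Enzymes called lower in the direct comparison numbered 2 with the DESeq2 test (6.06%, against 24% of all genes) and 3 with only the groups compared (9.09% against 31.8%; the cause was not tested); leaving out a library gave 1 to 3 of them and 9 to 15 other pathway genes lower. In fits that leave a group with 1 library, that library is assumed to vary like the others, although the shScr pair differed more than the hairpin pairs (chi-square per degree of freedom 30.8, against 5.94 and 6.66).

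The replicate numbers did not pair the samples: the correlation of replicate differences was -0.026, 0.042 and 0.053 for the 3 pairs of groups. With the replicate number as a block, 7922, 8566 and 6682 genes were called (7984, 8602 and 6703 without), with 13 enzymes higher and 8 lower in shPkm1 and 20 and 6 in shPkm2; the block changed 1 enzyme call, adding Cad in the direct comparison (0.28, adjusted p = 0.0472 against 0.0527). Depth limits the least abundant enzymes most, and changes of about 0.5 on the log2 scale can be missed with 2 libraries per group.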
